A study of Mus musculus with 6 samples.

Results

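Reg3g, Reg3b, Pigr, Slpi, Wfdc2 and Muc1 are 6 genes that epithelia of mucosal surfaces use for defence. They were chosen from their measured difference between the 2 groups of kidneys compared here, so their values are a description and no test of them is given. Of the 6 genes, 5 were among the 17684 genes of the deposited gene table, and Reg3b was not analysed here. RNA of whole kidneys was measured in 3 mice of the Db group and 3 mice of the Db + Ato10 group, 1 library per mouse. All 6 were db/db mice of the strain C57 BLKS/L in the sample records (C57BLKS/J in the study's methods), which lack a working leptin receptor and become obese and diabetic, and all were 50 weeks old. The Db group had received normal saline for 40 weeks and the Db + Ato10 group atorvastatin, a statin, at 10 mg/kg for 40 weeks, by gavage. One field of the sample records gives atorvastatin for all 6 mice and another separates saline from atorvastatin, and the latter sets the groups. Mice of both groups were lost over the long course and those measured had survived it, which limits what the groups stand for. The purpose was to see how the kidney differed after a long statin course in a diabetic mouse.

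Mucosal epithelia keep microbes at a distance with secreted and membrane-bound proteins. Reg3g and Reg3b are secreted C-type lectins, known from the gut, where signals of the interleukin-22 and interleukin-6 families acting through the transcription factor STAT3 induce them. Pigr is the receptor that carries polymeric IgA across epithelial cells, and its cleaved outer part leaves with the antibody as secretory component. Slpi and Wfdc2 are small secreted proteins with whey acidic protein (WAP) domains; Slpi inhibits neutrophil elastase and cathepsin G. Muc1 is a mucin that spans the apical membrane. In the healthy kidney, Muc1 and Wfdc2 are known from the distal nephron and collecting duct.

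The total was 13134930, 11381678 and 12426051 counts for Db replicates 1 to 3, and 14578023, 14667909 and 13133241 counts for Db + Ato10 replicates 1 to 3. Levels are given as CPM (counts per library total, after scaling of the totals between libraries), on which 3 counts of a gene correspond to 0.198 to 0.260 CPM, a limit that covers counting error only. Of the 6 libraries 3 stood apart. Db + Ato10 replicate 1 was the farthest from the rest, with Spearman correlations across genes of 0.834 to 0.863 with the Db libraries and 0.922 and 0.869 with the other libraries of its own group. Db replicate 1 held 2 counts over 4 Y-linked genes, against 1419 to 2116 in the other libraries, although the study's methods name male mice only. Db + Ato10 replicate 3 was closer to the Db libraries, with correlations of 0.978 to 0.985, than to the other libraries of its own group, with 0.869 and 0.957. Values of the 5 genes and counts or medians of the pathway lists are therefore also given without 1 or more of these libraries, while correlations between genes use all 6.

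Reg3g was absent from the Db kidneys at this depth and present in each Db + Ato10 kidney. Reg3g (gene 19695) had 0 counts in Db replicates 1, 2 and 3, and 685, 546 and 135 counts in Db + Ato10 replicates 1, 2 and 3. These counts were 45.1, 36.9 and 10.6 CPM in the Db + Ato10 libraries, with a mean of 30.9 ± 18.0 (SD, n = 3). The groups did not overlap, and replicate 3 was the lowest of the Db + Ato10 libraries, with a 4.24-fold distance between the highest and the lowest. Against a floor of 3 counts in each Db library, the mean was at least 125-fold higher in the Db + Ato10 group. The lowest Db + Ato10 library was at least 40.9-fold above the highest floor of a Db library, so the separation did not rest on replicates 1 and 2. The log2 of the least fold was 6.97, and it was 6.94 with Db replicate 1 left out. Leaving out Db + Ato10 replicates 1, 2 or 3 in turn gave 6.59, 6.82 and 7.38. In the bulk tissue, more cells that express a gene and more RNA per cell cannot be told apart. Scaled for transcript length as FPKM, Reg3g stood at the 92.6, 91.1 and 74.2 percentile of all genes in Db + Ato10 replicates 1, 2 and 3.

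Of the other Reg genes listed, Reg4 alone was in the table. On the RefSeq assembly GRCm38.p6, Reg3g lies on chromosome 6 next to Reg1, Reg2, Reg3a, Reg3d and Reg3b, and none of these neighbours was analysed here. Reg4 had at most 3 counts in any library. Extl3, which has been described as a receptor for Reg proteins, had 47.3, 47.2 and 45.2 CPM in Db replicates 1 to 3 and 58.4, 44.0 and 41.4 CPM in Db + Ato10 replicates 1 to 3. The groups overlapped for Extl3, and its log2 fold change was 0.04 (SE 0.16; adjusted p = 0.896, Benjamini-Hochberg, by the quasi-likelihood test of edgeR), or -0.12 without Db + Ato10 replicate 1. Between the annotated Reg3g and Reg3b transcripts of GENCODE M21, 72.7% of aligned bases were identical and the longest shared run was 35 bases. How the counting treated reads that fit both genes is not given in the sources used here, so the Reg3g counts may hold reads of its relatives.

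Pigr was well expressed in both groups and set apart in a single library. Pigr (gene 18703) had 96.4, 255 and 239 CPM in Db replicates 1, 2 and 3, and 184, 706 and 246 CPM in Db + Ato10 replicates 1, 2 and 3. Db + Ato10 replicate 2 was the highest of the 6 libraries and Db replicate 1 the lowest, and the other 4 libraries of both groups lay in between and mixed. The means were 197 ± 87.2 CPM in the Db group, against 379 ± 285 CPM in the Db + Ato10 group (SD, n = 3 each). The log2 fold change of 0.95 (SE 0.60) was 0.15 when Db + Ato10 replicate 2 was left out, and 0.63, 1.29 or 1.18 when this was Db replicate 1, Db + Ato10 replicate 1 or Db + Ato10 replicate 3. Here 1 library carried the difference.

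Slpi covered the widest range among the libraries of 1 group. Slpi (gene 20568) had 6, 33 and 7 counts in Db replicates 1, 2 and 3, and 6207, 735 and 26 counts in Db + Ato10 replicates 1, 2 and 3. In CPM these were 0.477, 2.86 and 0.565 in the Db group, against 409, 49.6 and 2.05 in the Db + Ato10 group. Replicates 1 and 2 of the Db + Ato10 group lay far above every Db library, while its replicate 3 lay between Db replicates 2 and 3, so the groups overlapped. The highest Db + Ato10 library was 200-fold above the lowest of the same group. The log2 fold change was 6.89 (SE 1.95). It was 4.34 with Db + Ato10 replicate 1 left out and 8.18 with Db replicate 2 left out. Leaving out Db replicate 1 gave 6.51, and leaving out Db + Ato10 replicate 3 gave 7.48.

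Wfdc2, the other WAP domain protein of the 6, was already abundant in the Db kidneys. Wfdc2 (gene 67701) had 154, 279 and 147 CPM in Db replicates 1, 2 and 3, and 496, 517 and 265 CPM in Db + Ato10 replicates 1, 2 and 3. Db + Ato10 replicates 1 and 2 were above every Db library, and replicate 3 was just below Db replicate 2. The means were 193 ± 74.1 and 426 ± 140 CPM (SD, n = 3 each), and the log2 fold change was 1.14 (SE 0.37). Leaving out Db replicate 1 gave 1.01, and leaving out Db + Ato10 replicates 1 or 3 gave 1.03 and 1.39. Of its 2 transcripts, NM_026323.2 held 98.3% to 99.1% of the counts in every library, so both groups used the same transcript.

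Muc1 was higher in each Db + Ato10 library than in each Db library, by a smaller factor than Reg3g or Slpi. Muc1 (gene 17829) had 26.5, 45.8 and 34.8 CPM in Db replicates 1, 2 and 3, and 118, 88.9 and 61.8 CPM in Db + Ato10 replicates 1, 2 and 3. The groups did not overlap, and the lowest Db + Ato10 library was 1.35-fold above the highest Db library. The means were 35.7 ± 9.68 and 89.6 ± 28.2 CPM (SD, n = 3 each), and the log2 fold change was 1.33 (SE 0.30). Leaving out Db replicate 1 gave 1.17, and leaving out Db + Ato10 replicates 1 or 3 gave 1.09 and 1.54.

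**Figure D1:**
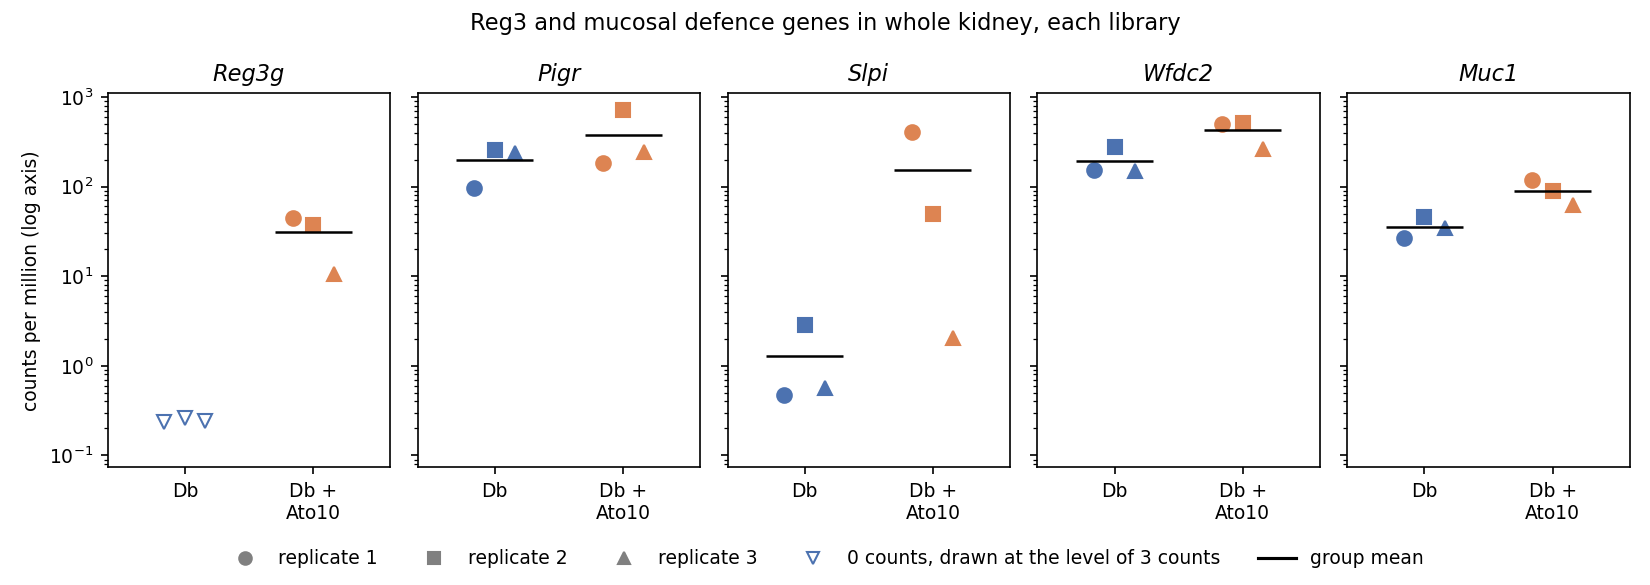
CPM on a log axis for the 5 genes in each of the 3 Db and 3 Db + Ato10 libraries; symbols mark the replicate, lines the group means, and open triangles libraries with 0 counts, drawn at the level of 3 counts. The groups are apart for Reg3g and Muc1 and overlap for Pigr, Slpi and Wfdc2.

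For 2 of the 5 genes every Db + Ato10 library was above every Db library, and the same held for 12.0% of the 13679 genes tested, those that reached 10 counts in 3 libraries or more. Nothing is read from this count, since the genes were chosen on this contrast. All 5 genes passed that filter, Reg3g only through the group in which it is high, and Slpi with 4 libraries at 10 counts or more, of which 1 was a Db library. Without Db + Ato10 replicate 3 the count was 4 of 5, beside 25.7% of all genes tested. Without Db replicate 2, the highest Db library for Pigr, Slpi, Wfdc2 and Muc1, it was also 4 of 5, beside 20.15%. Without Db replicate 1 it was 2 of 5, beside 15.5%, and without Db + Ato10 replicate 1 also 2 of 5, beside 14.96%.

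The 5 genes did not follow 1 order across the Db + Ato10 kidneys. Replicate 1 was the highest of its group for Reg3g, Slpi and Muc1, and replicate 2 for Pigr and Wfdc2. Replicate 3 was the lowest for all of them but Pigr, for which replicate 1 was the lowest. Pearson's r of log2 CPM over the 6 libraries was 0.83 to 0.95 between the pairs without Pigr and 0.38 to 0.61 between Pigr and the others, as a description of libraries that share their 2 groups.

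On the FPKM scale, which allows levels of different genes to be compared, the order of the genes was the same in all 3 Db libraries and differed among the Db + Ato10 libraries. In the Db group Wfdc2 came first with 267 to 509 FPKM, then Pigr with 25.0 to 69.8, Muc1 with 12.2 to 22.2 and Slpi with 0.64 to 4.01, and Reg3g was listed at 0. No neighbours in this order overlapped across the 3 libraries. In the Db + Ato10 group Wfdc2 was again first in each library, with 923, 946 and 464 FPKM in replicates 1, 2 and 3. Slpi came second in replicate 1 with 585 FPKM, after Wfdc2 and Pigr in replicate 2 with 69.6 FPKM and last in replicate 3 with 2.75 FPKM. Reg3g, with 75.1, 60.2 and 16.7 FPKM, was above Muc1 in replicates 1 and 2 and below it in replicate 3, where Muc1 had 28.6 FPKM. Over the libraries of this group the ranges of all 5 genes overlapped with their neighbours in the order of means.

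The genes whose log2 CPM followed each of the 5 most closely over the 6 libraries, among 13388 genes with a mean of at least 1 CPM, differed from gene to gene. They were picked for this likeness, so nothing is read from the patterns that they share with the 5. Krt14, a keratin of basal epithelial cells, was nearest to Reg3g (r = 0.994), with 0.0795, 0 and 0 CPM in Db replicates 1 to 3 and 31.2, 13.6 and 5.59 CPM in Db + Ato10 replicates 1 to 3. Gabrp, a subunit of GABA-A receptors, had r = 0.994 with at most 0.0867 CPM in the Db group, against 4.57 to 23.1 CPM in the Db + Ato10 group. The groups did not overlap for Krt14 or Gabrp, which follows from their likeness to Reg3g. Both were under 10 counts in each Db library and passed the filter only through the group in which they are high. Tagln2, an actin-binding protein, had r = 0.993 at far higher levels, with 192 to 212 CPM against 324 to 360 CPM.

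Nearest to Slpi was Ctss, the lysosomal protease cathepsin S of antigen-presenting cells (r = 0.999), with 13.7, 31.6 and 16.0 CPM in Db replicates 1 to 3 and 517, 168 and 26.8 CPM in Db + Ato10 replicates 1 to 3. As for Slpi, Db + Ato10 replicate 3 lay below Db replicate 2. Pxn, the focal adhesion protein paxillin (r = 0.999; 167 to 261 CPM), put the 6 libraries in the same order as Slpi over a far narrower range. Cd300c2, a receptor of myeloid cells (r = 0.999; 1.11 to 32.5 CPM), had 2.51 CPM in Db replicate 2 and 2.52 CPM in Db + Ato10 replicate 3. For Wfdc2 the nearest were Cdh3 (P-cadherin; r = 0.998; 9.38 to 36.1 CPM), Camk2d, a calcium and calmodulin-dependent kinase (r = 0.997; 29.2 to 54.0 CPM), and Wdhd1, a DNA replication factor (r = 0.995; 1.43 to 4.08 CPM). Cdh3 had 9.38, 18.8 and 9.86 CPM in Db replicates 1 to 3 and 33.1, 36.1 and 16.6 CPM in Db + Ato10 replicates 1 to 3, overlapping between the groups as Wfdc2 did.

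For Muc1 the nearest were Bcl2a1a, an anti-apoptotic protein (r = 0.996; 0 to 7.51 CPM), Serpina3n, a secreted serine protease inhibitor (r = 0.995; 0.238 to 178 CPM), and Chpf2, an enzyme of chondroitin synthesis (r = 0.995; 25.0 to 56.5 CPM). For Pigr they included Wdr89 (r = 0.994; 2.23 to 5.81 CPM) and Dsg2, a desmosomal cadherin (r = 0.991; 21.2 to 34.4 CPM). Both had their highest level in Db + Ato10 replicate 2, as Pigr had.

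The other genes of the pathways around the 5 were taken from 9 lists with 171 genes in all, of which 146 were in the table and 91 were tested. In the Db + Ato10 group 70 of the 91 were higher and 21 lower, and their median log2 fold change was 0.97, against a median of -0.01 and 49.4% higher over all genes tested. The median of the listed genes was 0.36 over the 84 tested without Db + Ato10 replicate 1, and 0.44 over the 72 of them with 10 counts or more in every library. By edgeR's quasi-likelihood test 0 of the 91 passed a fold change over 1.5 and an adjusted p under 0.05, as did 0% of all genes tested, with a lowest adjusted p of 0.239. At an unadjusted p under 0.05 by that test there were 40 higher and 1 lower of the listed genes, and 2314 genes in all (1533 higher and 781 lower). DESeq2 called 32 of the 91, all of them higher, where it called 5.17% of all genes tested as higher and 1.29% as lower; limma-voom called 0. DESeq2 gave no adjusted p for Il1b, Hp, S100a8, S100a9 and Fcamr, and these were counted as not called. Calls of DESeq2 may hold many false ones in groups of this size, and they are given as a description only. Nothing is read from this contrast, since the lists were chosen with earlier results of these data known. Of the 91 genes 19, and of the 32 called genes 10, were under 10 counts in 1 or more Db libraries and so passed the filter only with the help of the Db + Ato10 group. Without Db + Ato10 replicate 3 edgeR called 25 of 84 listed genes, 24 higher and 1 lower, beside 8.18% of the 13517 genes tested there (5.96% higher and 2.23% lower), and without Db replicate 1 or Db + Ato10 replicate 1 it called 0. DESeq2 called 20 of 84, all higher, without Db + Ato10 replicate 1, beside 2.33% of the 13415 genes tested there (1.45% higher and 0.887% lower). Over all genes DESeq2 called 1.44% without Db replicate 1 (1.18% higher and 0.258% lower) and 19.3% without Db + Ato10 replicate 3 (11.8% higher and 7.50% lower). Of the 84 listed genes tested without Db + Ato10 replicate 3, DESeq2 called 36 higher and 5 lower. Without Db + Ato10 replicate 2 it called 20 listed genes higher and 1 lower. Every Db + Ato10 library was above every Db library for 33 of the 91 and below for 5, beside 12.0% and 11.3% of all genes tested.

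**Figure D2:**
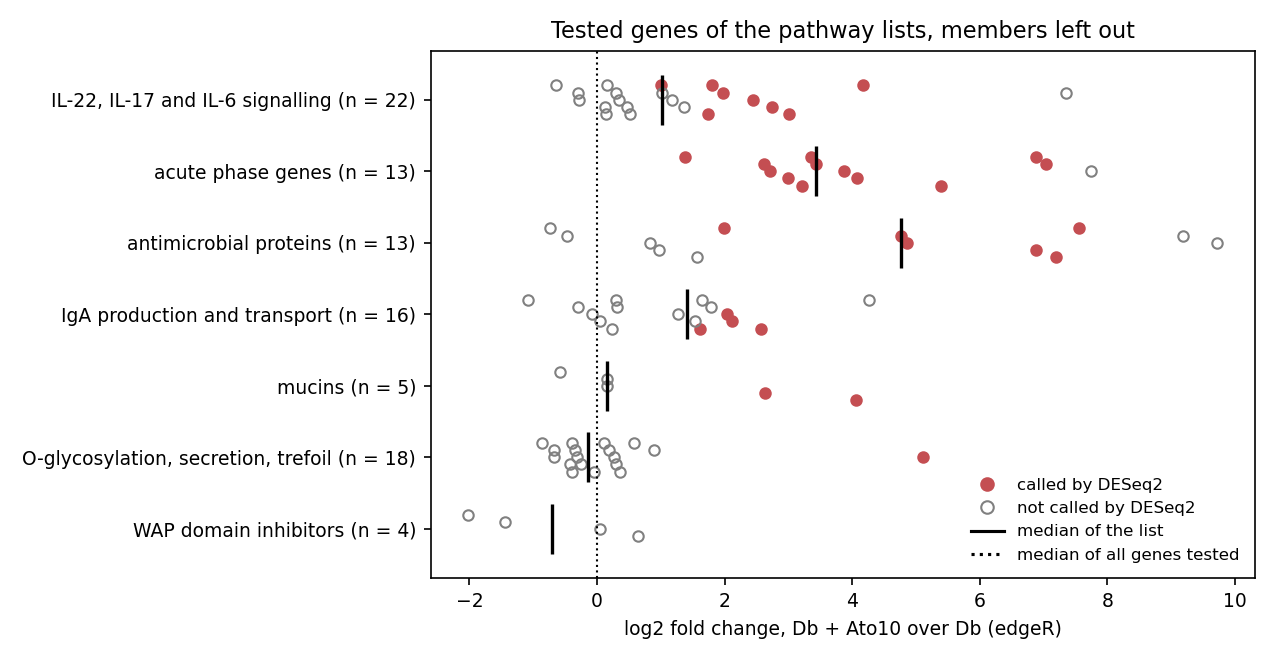
Log2 fold change of each tested gene of 7 pathway lists, Db + Ato10 over Db, without Reg3g, Pigr, Slpi, Wfdc2 and Muc1. Filled points were called by DESeq2. Open points were not, among them Il1b, Hp, S100a8, S100a9 and Fcamr, for which DESeq2 gave no adjusted p. Black bars are list medians and the dotted line is the median of all genes tested. Acute phase genes and antimicrobial proteins have medians of 3.43 and 4.77, and genes of mucin O-glycosylation have a median of -0.14, with Galnt6 far above it at 5.10.

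Of the signals that induce Reg3 genes in the gut, the listed genes of the interleukin-22, interleukin-17 and interleukin-6 families and their signalling, with Il1b and Il1r1 of the interleukin-1 family, gave 19 higher and 3 lower of 22 tested, with a median log2 fold change of 1.02, or 0.48 without Db + Ato10 replicate 1. Il22 was not analysed here, and Il6 and Il17a, with at most 16 and 6 counts in any library, did not pass the filter. Lif, Clcf1, Il11, Osm and Il17f, other ligands of these families, were chosen after their values were seen. Lif had 5, 33 and 6 counts in the Db group, against 151, 163 and 116 in the Db + Ato10 group. Its log2 fold change was 3.01 (SE 0.73), without overlap. Those of Clcf1 and Il11 were 1.97 (SE 0.57) and 1.17 (SE 0.66), with overlap. Osm and Il17f did not pass the filter. Osm had 0, 1 and 0 counts against 213, 25 and 6, and Il17f 6, 0 and 2 against 0, 1 and 1. DESeq2 called 8 of the tested genes, all higher, and 3 without Db replicate 1. Il1b, an inflammatory cytokine, had 0.715, 0.954 and 1.13 CPM in Db replicates 1 to 3 and 440, 14.9 and 3.94 CPM in Db + Ato10 replicates 1 to 3. There was no overlap for Il1b, and replicate 1 was far above the rest. DESeq2 gave no adjusted p for Il1b. Socs3, the feedback inhibitor that STAT3 induces, had 2.86, 8.41 and 3.07 CPM in Db replicates 1 to 3 and 205, 30.4 and 22.6 CPM in Db + Ato10 replicates 1 to 3 (log2 fold change 4.18, SE 1.03). Stat3 itself, chosen after its values were seen, had 122, 136 and 99.0 CPM in Db replicates 1 to 3 and 285, 230 and 203 CPM in Db + Ato10 replicates 1 to 3 (log2 fold change 1.01, SE 0.20). The groups did not overlap for Socs3 or Stat3. Il22ra1, the interleukin-22 receptor subunit, and Lifr, the receptor of leukemia inhibitory factor, had the lowest log2 fold changes, -0.64 (SE 0.63) and -0.29 (SE 0.16), and the groups overlapped for both.

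All 13 tested acute phase genes were higher in the Db + Ato10 group, with a median log2 fold change of 3.43. DESeq2 called 12 of them and gave no adjusted p for Hp. The median was 2.74 without Db + Ato10 replicate 1, where all 12 tested were higher, and DESeq2 called 7 there and 7 without Db replicate 1. Hp, the haemoglobin-binding haptoglobin, had 1.67, 2.51 and 0.808 CPM in Db replicates 1 to 3 and 1058, 15.1 and 2.28 CPM in Db + Ato10 replicates 1 to 3. Its replicate 3 of the Db + Ato10 group lay below Db replicate 2, as for Slpi. Timp1, an inhibitor of metalloproteinases, had 0.397, 0.694 and 0.242 CPM in Db replicates 1 to 3 and 131, 37.6 and 8.43 CPM in Db + Ato10 replicates 1 to 3, without overlap (log2 fold change 7.04, SE 1.21). Being under 10 counts in each Db library, Timp1 passed the filter only through the group in which it is high. The smallest log2 fold changes of the list were 1.37 (SE 0.36) for Cp, the copper-carrying ceruloplasmin, and 2.62 (SE 0.63) for C3, the central complement component. Both had groups that did not overlap.

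Of the listed antimicrobial proteins 11 of 13 tested were higher and 2 lower, with a median log2 fold change of 4.77, and DESeq2 called 6, all higher. Without Db + Ato10 replicate 1 the median was 2.01, with 10 of 12 higher and 4 called by DESeq2, and without replicate 3 it was 3.86, with 8 higher and 1 lower called by DESeq2. S100a8 and S100a9, which form the metal-binding calprotectin of neutrophils, had the largest log2 fold changes, 9.72 (SE 2.91) and 9.18 (SE 2.75). DESeq2 gave no adjusted p for either, so they are not among its calls. S100a8 had 1.51, 1.91 and 0.485 CPM in Db replicates 1 to 3 and 3276, 27.4 and 2.13 CPM in Db + Ato10 replicates 1 to 3. Nearly all of its summed level was in Db + Ato10 replicate 1. The lowest log2 fold changes of the list were -0.74 (SE 0.33) for the beta-defensin Defb1 and -0.46 (SE 0.46) for Umod, the uromodulin of the thick ascending limb. Defb1 had 643, 558 and 485 CPM in Db replicates 1 to 3 and 378, 192 and 442 CPM in Db + Ato10 replicates 1 to 3, without overlap, whereas the groups overlapped for Umod.

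Among other genes of IgA production and transport, 13 of 16 tested were higher and 3 lower, with a median log2 fold change of 1.41, and DESeq2 called 4, all higher. The median was 0.33 without Db + Ato10 replicate 1, where DESeq2 called 2. It called 1 without Db replicate 1, and 8 higher and 1 lower without Db + Ato10 replicate 3. Jchain, the chain that joins the polymeric IgA carried by Pigr, had 0.636, 16.6 and 3.23 CPM in Db replicates 1 to 3 and 297, 91.8 and 4.96 CPM in Db + Ato10 replicates 1 to 3. Its highest library was Db + Ato10 replicate 1, in which Pigr was below 2 of the 3 Db libraries, and the groups overlapped. Irf4, a transcription factor of plasma cells, had a log2 fold change of 2.58 (SE 0.84) with overlapping groups. Fcamr, a receptor for IgA and IgM, had 43.9, 45.4 and 56.1 CPM in Db replicates 1 to 3 and 5.40, 6.21 and 57.6 CPM in Db + Ato10 replicates 1 to 3. Its Db + Ato10 replicates 1 and 2 were low and replicate 3 was the highest of all 6 libraries. Myo5b, a motor protein of apical recycling endosomes, had a log2 fold change of -0.30 (SE 0.32), and the groups overlapped.

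Of 5 other mucins tested, 4 were higher and 1 lower, with a median log2 fold change of 0.15. It was -0.14, with 1 of 4 tested higher, without Db + Ato10 replicate 1, and 0.36, with 3 of 3 higher, without replicate 3. Muc4, another membrane mucin, had 0.556, 1.73 and 0.162 CPM in Db replicates 1 to 3 and 19.6, 19.7 and 1.58 CPM in Db + Ato10 replicates 1 to 3. Its replicate 3 of the Db + Ato10 group lay below Db replicate 2, so the groups overlapped. Muc13 had log2 fold change 2.64 (SE 0.77) with at most 2.50 CPM in any library, and DESeq2 called it and Muc4, but no mucin of the list without Db replicate 1. Since Muc13 was under 10 counts in each Db library, it passed the filter only through the group in which it is high, and nothing is read from its call. Emcn, an endothelial sialomucin, had a log2 fold change of 0.15 (SE 0.34) and the gel-forming Muc6 -0.58 (SE 0.57), and the groups overlapped for both. Muc3, Muc5ac, Muc15 and Muc16 had at most 3 counts in every library. Muc5b, Muc19 and Muc2 also did not pass the filter. Muc5b had 0 counts in each Db library and 101, 43 and 0 counts in Db + Ato10 replicates 1 to 3. Muc19 had 58, 4 and 6 counts in the Db group against 0, 4 and 2 counts, and Muc2 had at most 6 counts in any library.

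The listed genes of mucin O-glycosylation, secretion and the trefoil family went in both directions, and a difference from Muc1 was not tested. Of the 18 tested, 8 were higher and 10 lower, beside 49.4% higher over all genes tested. Their median log2 fold change was -0.14, and DESeq2 called 1 of them. That gene was Galnt6, an enzyme that starts O-glycans, with 0.159, 0.433 and 0.162 CPM in Db replicates 1 to 3 and 21.1, 4.59 and 0.788 CPM in Db + Ato10 replicates 1 to 3. For Galnt6 there was no overlap. With under 10 counts in each Db library it passed the filter only through the group in which it is high, so nothing is read from its call. It did not pass the filter once Db + Ato10 replicate 1 or 3 was left out, and without replicate 3 DESeq2 called 0 higher and 2 lower of 17 tested, beside the 7.50% of all genes called lower there. St3gal1, a sialyltransferase, followed with a log2 fold change of 0.89 (SE 0.51). Galnt14 and Gcnt1, an enzyme that starts and one that branches such chains, had the lowest, -0.86 (SE 0.45) and -0.68 (SE 0.43), with overlapping groups.

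Few other genes of the WAP domain family could be compared. Besides Slpi and Wfdc2, 12 of 21 listed genes were in the table and 4 were tested, 2 of them higher and 2 lower, with a median log2 fold change of -0.70. The median over 3 tested genes was -1.497 without Db + Ato10 replicate 1 and 0.35 without replicate 3. Wfdc15b had 182, 202 and 222 CPM in Db replicates 1 to 3 and 98.5, 17.3 and 108 CPM in Db + Ato10 replicates 1 to 3, without overlap and in the opposite direction to Slpi and Wfdc2 (log2 fold change -1.44, SE 0.61). Wfdc16 had -2.02 (SE 1.22), Wfikkn1 0.04 (SE 0.55) and Wfdc1 0.65 (SE 0.45), and the groups overlapped for each of these 3. Wfdc15b, Wfdc16, Slpi and Wfdc2 lie on chromosome 2 with most of the family. Between Slpi and Wfdc2 on GRCm38.p6 lie 7 protein-coding genes, of which 5 were tested, and their log2 fold changes ran from -0.75 (SE 0.56) for Matn4 to 0.52 (SE 0.26) for Dbndd2. Wfdc17 and Wfdc21, on chromosome 11 and chosen after their values were seen, did not pass the filter, with at most 0.607 CPM in the Db group. Wfdc17 had 250, 7.495 and 0.315 CPM in Db + Ato10 replicates 1 to 3, and Wfdc21 had 74.0, 0.608 and 0 CPM, so both were within the Db range in replicate 3. Wfdc18, likewise chosen, had 3.49, 1.15 and 0 CPM, against at most 0.173 CPM in the Db group.

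The 4 listed serine proteases of neutrophils, Elane, Ctsg, Prtn3 and Prss57, did not pass the filter. Elane (neutrophil elastase), which Slpi inhibits, had 0.0795, 0 and 0 CPM in Db replicates 1 to 3 and 19.4, 0.135 and 0 CPM in Db + Ato10 replicates 1 to 3. Ctsg (cathepsin G), which Slpi also inhibits, had 0.0795, 0 and 0 CPM against 11.1, 0.0675 and 0 CPM. Both were high in Db + Ato10 replicate 1 only. Prtn3 had 20.6 CPM and Prss57 1.71 CPM in that library. For the 4 genes together the summed level was 0.477, 0.260 and 0 CPM in Db replicates 1 to 3 and 52.8, 1.01 and 0.709 CPM in Db + Ato10 replicates 1 to 3. In Db + Ato10 replicate 2, where Slpi was at 49.6 CPM, the proteases together were near 1 CPM.

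Markers of immune cells differed among the Db + Ato10 kidneys in the same order as Slpi. All 11 neutrophil markers were in the table, and their sum was 7.31, 11.1 and 6.87 CPM in Db replicates 1 to 3 and 11490, 184 and 32.5 CPM in Db + Ato10 replicates 1 to 3. S100a9 was the most abundant by FPKM, and no marker of the list was at 0 in every library. S100a8, S100a9, Camp and Ltf are also in the list of antimicrobial proteins. Of the sum, S100a9 and S100a8 held 5285 and 3276 CPM in Db + Ato10 replicate 1, and Ltf held 18.75 CPM in Db + Ato10 replicate 3. The 8 macrophage markers, led by C1qa, summed to 108, 174 and 135 CPM in the Db group, against 2161, 700 and 198 CPM in the Db + Ato10 group, and all 8 had a positive log2 fold change. Both lists were high in Db + Ato10 replicate 1, intermediate in replicate 2 and closest to the Db libraries in replicate 3. The 8 B and plasma cell markers, led by Jchain, summed to 13.0, 39.9 and 19.2 CPM against 465, 168 and 36.2 CPM, and 6 T cell markers, led by Cd3g, to 2.62, 7.11 and 3.15 CPM against 21.5, 18.4 and 3.78 CPM. For these lymphocyte lists Db + Ato10 replicate 3 was below Db replicate 2. The part of immune cells in the levels of Slpi and the other genes was not tested.

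Markers of the epithelium differed as well. The 13 injured tubule markers, led by Spp1, summed to 4054, 5042 and 2833 CPM in Db replicates 1 to 3 and 17520, 33320 and 11680 CPM in Db + Ato10 replicates 1 to 3. All 13 were higher, 10 of them without overlap, beside 12.0% of all genes tested. Spp1 made up 28860 CPM of the sum in replicate 2, and without it the sums were 1146, 1674 and 995 CPM in the Db group, against 8613, 4462 and 2559 CPM. Of these, Lcn2 held 5088, 868 and 308 CPM in Db + Ato10 replicates 1 to 3. Lcn2 is also in the lists of acute phase genes and antimicrobial proteins. Its protein is neutrophil gelatinase-associated lipocalin, and the part of neutrophils in the Lcn2 level was not tested. Among the Db + Ato10 libraries, 8 of the 13 markers were highest in replicate 1 and 5 in replicate 2. The 11 urothelium markers, led by Krt20, summed to 37.3, 38.1 and 34.7 CPM against 234, 161 and 59.2 CPM. Of the 8 tested 6 were higher and 2 lower, and 3 of 6 were higher without Db + Ato10 replicate 1. The groups did not overlap for 3 of the 8, the keratins Krt5, Krt14 and Krt20, beside 12.0% of all genes tested. Krt20 is also an injured tubule marker here. With under 10 counts in each Db library, Krt5 and Krt14 passed the filter only through the group in which they are high. Without these 3 keratins the sums were 36.0, 35.1 and 33.8 CPM against 54.2, 37.2 and 23.95 CPM. Gata3 had a log2 fold change of -0.37 (SE 0.17), and the uroplakin Upk1a had 1.78 to 2.70 CPM in the Db group, against 0.878 to 2.17 CPM in the Db + Ato10 group. The other listed uroplakins had higher means in the Db + Ato10 group, with overlapping groups. From Db to Db + Ato10 the means were 0.483 and 1.81 CPM for Upk1b and 0.241 and 0.537 CPM for Upk2. They were 0.377 and 2.80 CPM for Upk3a, and 2.18 and 2.44 CPM for Upk3b. The part of injured tubules or urothelium in the levels of the 5 genes was not tested.

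The nephron segments in which Muc1 and Wfdc2 are known to be expressed had lower marker levels in the Db + Ato10 group. The 10 collecting duct markers, led by Aqp2, summed to 1232, 976 and 1427 CPM in Db replicates 1 to 3 and 852, 539 and 883 CPM in Db + Ato10 replicates 1 to 3, and all 10 were lower, 8 without overlap, beside 11.3% of all genes tested. The 7 thick ascending limb markers, led by Umod, summed to 8699, 9464 and 8888 CPM against 4762, 2295 and 6229 CPM, and the 5 distal convoluted tubule markers, led by Calb1, to 3798, 4169 and 2745 CPM against 1976, 1120 and 1857 CPM. For each of these 3 lists every Db + Ato10 library was below every Db library, opposite to Muc1. The 9 proximal tubule markers, led by Gpx3, summed to 50690 to 61820 CPM in the Db group, against 31520 to 60010 CPM in the Db + Ato10 group, so markers of kidney were abundant in all libraries. Most of this sum was Gpx3, and without it the sums were 12660, 7699 and 11090 CPM against 2269, 5036 and 10490 CPM. All 9 had a negative log2 fold change, with a median of -0.76 (-0.32 without Db + Ato10 replicate 1, with 7 of 9 lower, and -1.60 without replicate 3), and for 1 of them, Slc5a2, every Db + Ato10 library was below every Db library. Lrp2, the endocytic receptor megalin, had 2238, 992 and 1909 CPM in Db replicates 1 to 3 and 183, 550 and 1502 CPM in Db + Ato10 replicates 1 to 3, lowest in Db + Ato10 replicate 1. Podocyte markers, led by Podxl, ran from 382 to 587 CPM and from 206 to 604 CPM, and endothelial markers, led by Emcn, from 290 to 354 CPM and from 148 to 379 CPM, with overlap for both.

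Reg3g is best known from pancreas and intestine, and most listed markers of those organs were not analysed here. Of 12 pancreatic acinar markers 5 were in the table, and Cpa1, Cpb1, Ctrb1 and Clps had at most 3 counts in every library; Cela1 was at 28.7 to 86.8 CPM. The sum of the list was 62.9, 78.0 and 80.8 CPM in Db replicates 1 to 3 and 29.0, 64.7 and 86.8 CPM in Db + Ato10 replicates 1 to 3. The part of pancreatic tissue in the Reg3g level was not tested. Of 10 intestinal markers 4 were in the table, and Tff3 had at most 3 counts in every library. The sum was 200, 176 and 205 CPM in the Db group, against 71.5, 199 and 236 CPM in the Db + Ato10 group, most of it Vil1 (53.4 to 202 CPM), which the brush border of the proximal tubule also uses. Lgals4 was at 13.1 to 33.6 CPM.

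**Figure D3:**
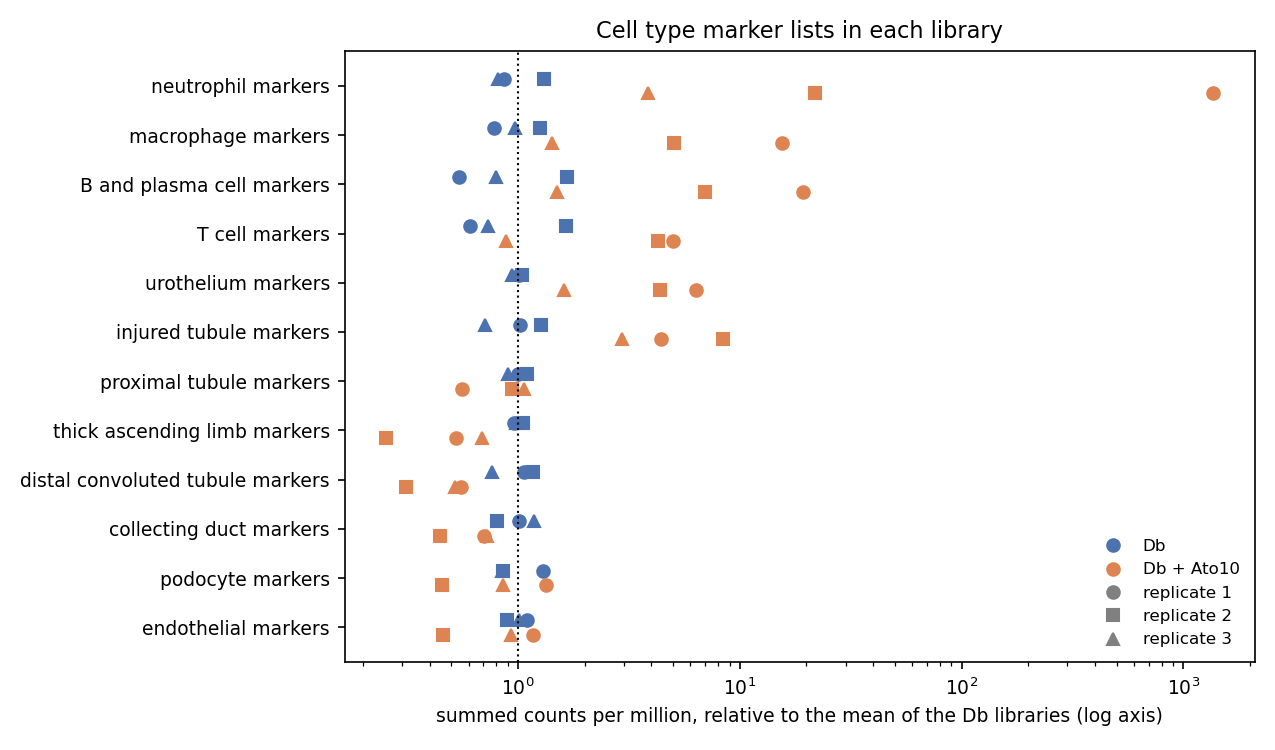
Summed CPM of each cell type marker list in each library, divided by the mean of the 3 Db libraries, on a log axis; colours mark the group and symbols the replicate. Neutrophil markers reach 1364 times the Db mean in Db + Ato10 replicate 1, and the lists of the thick ascending limb, distal convoluted tubule and collecting duct lie below 1 in every Db + Ato10 library.

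Promoters of all 6 genes were found in a RefSeq table of the assembly GRCm38.p6 that gives 250 bases before to 50 after each start. They were searched on both strands for letters known from STAT (TTCNNNGAA), C/EBP (TTGCNNAA) and E-box (CACGTG) motifs, which occurred in 8.47%, 10.8% and 7.24% of 27025 promoters of that length. The windows of Reg3g, Wfdc2 and Muc1 held none of them, which says only that these letters are not in these windows. The window of Pigr, at chr1:130826434-130826733 on the plus strand, held the E-box letters at bases 180 to 185 and the STAT letters at bases 290 to 298. The window of Slpi, at chr2:164356458-164356757 on the minus strand, held the C/EBP letters at bases 10 to 17, on the opposite strand, and the E-box letters at bases 105 to 110. No matches overlapped. That of Reg3b held the STAT letters at bases 122 to 130, and those of Reg3b and Reg3g had 69.9% identical aligned bases. The windows of Pigr and Slpi, with the matches in capitals, are printed beside that of Reg3g, at chr6:78468825-78469124 on the minus strand, as the 3 genes with the most different patterns across the libraries.
Reg3g: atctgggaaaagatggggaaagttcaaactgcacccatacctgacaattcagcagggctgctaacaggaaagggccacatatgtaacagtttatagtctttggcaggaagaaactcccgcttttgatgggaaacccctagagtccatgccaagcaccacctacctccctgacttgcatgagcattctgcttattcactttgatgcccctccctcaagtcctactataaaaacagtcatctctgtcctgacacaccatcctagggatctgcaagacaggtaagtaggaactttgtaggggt
Pigr: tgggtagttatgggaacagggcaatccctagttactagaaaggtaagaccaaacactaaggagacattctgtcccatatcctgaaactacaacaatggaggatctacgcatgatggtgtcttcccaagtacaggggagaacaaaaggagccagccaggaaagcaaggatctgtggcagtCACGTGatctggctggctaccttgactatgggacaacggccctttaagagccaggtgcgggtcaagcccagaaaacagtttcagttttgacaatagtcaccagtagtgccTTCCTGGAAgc
Slpi: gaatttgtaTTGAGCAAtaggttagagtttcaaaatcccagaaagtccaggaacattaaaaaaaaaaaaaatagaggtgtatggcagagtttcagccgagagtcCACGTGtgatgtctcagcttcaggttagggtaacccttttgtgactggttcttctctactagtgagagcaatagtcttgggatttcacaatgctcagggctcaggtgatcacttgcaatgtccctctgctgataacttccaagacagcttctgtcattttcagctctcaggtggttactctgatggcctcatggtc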

How the data were processed

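The authors deposited, per gene, expected counts (estimated reads, not normalized), FPKM (scaled to transcript length and depth) and TPM (scaled to length and then to a common total), and per transcript expected counts; the authors' group means were not used. The submitters' processing notes name HISAT, Bowtie2 2.2.5 and mm9; the counter is not given in the sources used here. Expected counts were rounded (91.3% of gene values were whole) and compared with edgeR 4.0.16 in R 4.3.3: TMM, quasi-likelihood F test, Benjamini-Hochberg adjustment, for genes that reached 10 counts in 3 libraries or more. Called meant a fold change over 1.5 and an adjusted p under 0.05, the paper's criteria. CPM used TMM-scaled totals, with a prior count of 2 in log2 CPM. For 3 against 3 mice the smallest exact permutation p is 0.1. Alternatives were DESeq2 1.42.0, limma 3.58.1 (voom, and log2 of FPKM + 1 or TPM + 1), upper-quartile scaling, other filters, a replicate block and each library left out; DESeq2 and single lists with a library left out were tried only once the data had been seen. List symbols were matched to gene numbers through RefSeq GRCm38.p6 (307 of 307 entries, 266 in the table), used for names, neighbours and promoters, since it differs from mm9. The genes and lists were chosen with earlier results of these data known. Named genes were the 6 genes, detected Reg genes, the 2 highest and 2 lowest log2 fold changes of each list and the 3 genes most like each of the 5, of which 1 is not reported here; others were chosen after their values were seen. Figures used matplotlib 3.10.9.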

Additional observations from a re-analysis of the deposited data

How the results depend on the processing

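The log2 fold changes of Pigr, Slpi, Wfdc2 and Muc1 kept their sign under the alternatives in which they could be fitted. Reg3g is given only as a bound, whose log2 ran from 6.59 to 7.38 with a library left out; it could not be fitted without any 1 of the Db + Ato10 libraries, nor Reg3g and Slpi with at least 10 counts required in every library. With a library left out, the log2 fold change ran from 0.15 to 1.29 for Pigr, 4.34 to 8.18 for Slpi, 0.98 to 1.5 for Wfdc2 and 1.09 to 1.55 for Muc1. For Slpi it was 5.25 by limma-voom, and 4.45 and 4.60 on the scales of log2(FPKM + 1) and log2(TPM + 1), which understate differences of low genes. By edgeR's quasi-likelihood test 0 genes were called (2314 at an unadjusted p under 0.05), as by limma-voom (0 called, 1820 at an unadjusted p under 0.05), while DESeq2, whose calls may hold many false ones in groups of this size, called 884 genes and 32 of the listed genes. With a library left out, edgeR called 0 to 1106 genes and 0 to 25 of the listed genes, the upper values without Db + Ato10 replicate 3 and 0 in the other 5 cases. DESeq2 called 195, 623 and 223 genes without Db replicates 1, 2 and 3, and 313, 372 and 2614 without Db + Ato10 replicates 1, 2 and 3; for the listed genes it called 16, 28, 16, 20, 21 and 41 in the same order. The cause of these differences was not tested. The replicate numbers were not taken as pairs in the main fit. Deviations of same-numbered libraries from their group means correlated at -0.15, 0.06 and 0.21, and Db replicates 1 and 2 correlated best with another number. With 3 libraries per group, such correlations cannot exclude a pairing. With the replicate number as a block, 0 genes and 0 listed genes were called (1856 genes at an unadjusted p under 0.05), and the log2 fold changes were 0.82 for Pigr, 5.42 for Slpi, 1.14 for Wfdc2 and 1.31 for Muc1. Depth limits Reg3g in the Db group to below 0.260 CPM.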
